A study of Mus musculus with 28 samples.

Results

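The 44 genes described here encode proteins that build ribosomes. They were chosen by name, with no measured value in the rule, but with earlier results of these data known. Each was followed through the brightest of the probe sets that name only that gene, the one with the highest mean over the 28 arrays. 43 of the 44 genes had such a probe set, out of 18193 genes in the whole series. The only probe set for Mrto4, a large subunit assembly factor, also names other genes, and Mrto4 was not analysed here. All 43 measured genes lay over the detection level, a log2 value of 4.27, in all 28 arrays. Their mean levels over the arrays ran from 5.75 to 14.75 log2 units with a median of 9.22, against a median of 7.93 over the 9871 genes tested.

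A ribosome is assembled in the nucleolus around ribosomal RNA that RNA polymerase I transcribes. Small nucleolar ribonucleoproteins (snoRNPs) modify that RNA, a large particle called the small subunit processome folds and cuts the 5′ part of the precursor, and separate sets of factors assemble the large subunit. T cells that have met antigen enlarge their nucleoli and make ribosomes before they divide, and MYC, which binds the E-box sequence, is a known activator of many of these genes in growing cells.

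The series asked how romidepsin and vorinostat, inhibitors of the histone deacetylases that take acetyl groups off histones, act on gene expression in T cells. Mouse splenic T cells were purified by negative selection, stimulated for 2 days with plate-bound antibody to CD3 and soluble antibody to CD28, and then kept for 1 day with drug. The groups of CD8 cells received romidepsin at 2, 10 or 30 nM, vorinostat at 0.5, 2 or 10 µM, or no drug (control), and CD4 cells received the same, which makes 14 groups of 2 arrays. All groups, controls included, were stimulated; the labels give no strain, sex, age or vehicle, and whether replicates came from separate animals is not stated, so p-values measure the spread between these samples only. Array values are deposited log2 signals and not read counts, so the number of arrays limits the precision. In bulk RNA, fewer cells of a type and less RNA per cell cannot be told apart.

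Changes below are differences in log2 units between group means (n = 2 each), with ± for the standard error in a limma fit to all 28 arrays. A gene is said to have risen or fallen where its adjusted p, by the Benjamini-Hochberg method over the 9871 genes, was under 0.05 in that fit. A second limma fit, said each time to be with the block, adds a term for replicate number, separately for CD4 and CD8 cells. The 95% interval of a difference extended by a median of 0.97 log2 units on either side, which the block lowered to 0.35. Replicate 1 arrays stood apart from replicate 2 arrays: the members were lower in replicate 1 in all 14 groups, by a median of 0.11 to 0.70 log2 units. For some genes the change within replicate 1 and within replicate 2 is given too, in that order. The 3′ minus 5′ difference of the beta-actin probe sets, a measure of RNA integrity, moved with dose. In CD8 cells romidepsin at 30 nM gave 1.23 and 0.90 and vorinostat at 10 µM gave 1.43 and 1.16, where the CD8 controls gave 0.86 and 0.79. In CD4 cells the same doses gave 1.55 and 0.97, and 1.62 and 1.09, where the CD4 controls gave 0.94 and 0.78. The same difference for Gapdh was 0.18 and 0.07, and 0.26 and 0.13, in these CD8 groups, against 0.2 and 0.08 in CD8 controls. In these CD4 groups the Gapdh difference was 0.24 and 0.09, and 0.34 and 0.08, against 0.2 and 0.16 in CD4 controls. Whether the beta-actin shift came from RNA integrity was not tested. Of the markers of other cells, all 5 myeloid, both NK cell and both erythroid markers on the array lay under the detection level in all 28 arrays. The summed level of 5 B cell markers ran from 4.82 to 8.82 in drug-treated CD8 cells, against 7.01 to 9.09 in CD8 controls, and from 4.6 to 10.06 in drug-treated CD4 cells, against 6.84 to 10.35 in CD4 controls. Cd79b of these changed with the block only, by -2.54 and -3.39 in CD8 cells and by -3.91 and -3.85 in CD4 cells at the top doses of romidepsin and vorinostat. Pax5 lay under the detection level throughout, as did Cd79a and Blnk in all CD8 arrays. In CD4 controls Pax5 was the only such B cell marker, and the others on the array lay over that level in at least 1 array. The summed level of 5 T cell markers was 11.88 to 14.78 in drug-treated CD8 cells, against 14.06 to 14.84 in CD8 controls, and 12.08 to 14.71 in drug-treated CD4 cells, against 14.33 to 14.8 in CD4 controls. The 3 CD8 T cell markers summed to 11.39 to 14.3 in drug-treated CD8 cells, against 13.08 to 13.39 in CD8 controls, and the 3 CD4 T cell markers to 5.12 to 8.67 in drug-treated CD4 cells, against 8.57 to 8.7 in CD4 controls. Cd40lg of these lay under the detection level in all CD4 arrays. Cd4 itself changed by -4.84 with romidepsin at 30 nM and by -4.73 with vorinostat at 10 µM in CD4 cells (adjusted p = 0.000102 and 0.000177 by limma); the part of these cell-type shifts in the results was not tested.

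The promoters of these genes, the 250 bases before and 50 bases after the transcript start in RefSeq (build GRCm38.p6), were read for 38 of the 44 genes. The E-box CACGTG, which reads the same on both strands, stood in 9 of the 38 promoters (23.7%), against 8.1% of 27025 promoters of all genes. CCGGAAG, the core letters of ETS-type sites, or its reverse complement CTTCCGG stood in 14 (36.8%), against 9.9% of all promoters. GGGCGG, the GC box, or its reverse complement CCGCCC stood in 28 (73.7%), against 38.2%. None of the 3 motifs contains another, and the median GC content was 58.2% for these genes and 52.7% for all promoters, and the part of GC content in these shares was not tested. The promoters printed are those of the 5 E-box genes with the deepest median fall over the 4 top-dose groups, chosen to show where the motif lies, with the E-box in capitals. They belong to Mybbp1a (chr11:72441077-72441376, plus strand), a nucleolar protein that binds MYB, Wdr43 (chr17:71615965-71616264, plus strand) and Utp20 (chr10:88826765-88827064, minus strand) of the small subunit processome, Pes1 (chr11:3963725-3964024, plus strand) of large subunit assembly, and Ltv1 (chr10:13193088-13193387, minus strand) of late small subunit maturation.
Mybbp1a: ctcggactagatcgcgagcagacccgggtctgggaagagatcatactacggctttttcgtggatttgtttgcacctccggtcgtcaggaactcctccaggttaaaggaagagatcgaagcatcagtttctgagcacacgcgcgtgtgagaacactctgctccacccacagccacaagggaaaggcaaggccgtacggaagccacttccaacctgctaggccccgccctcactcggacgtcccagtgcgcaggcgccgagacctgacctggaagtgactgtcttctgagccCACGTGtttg
Wdr43: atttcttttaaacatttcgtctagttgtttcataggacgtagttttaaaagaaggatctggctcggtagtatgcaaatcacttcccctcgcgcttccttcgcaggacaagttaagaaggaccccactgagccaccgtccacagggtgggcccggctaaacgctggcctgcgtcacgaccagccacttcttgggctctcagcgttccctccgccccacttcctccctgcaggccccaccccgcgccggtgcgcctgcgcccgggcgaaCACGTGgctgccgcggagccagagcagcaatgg
Utp20: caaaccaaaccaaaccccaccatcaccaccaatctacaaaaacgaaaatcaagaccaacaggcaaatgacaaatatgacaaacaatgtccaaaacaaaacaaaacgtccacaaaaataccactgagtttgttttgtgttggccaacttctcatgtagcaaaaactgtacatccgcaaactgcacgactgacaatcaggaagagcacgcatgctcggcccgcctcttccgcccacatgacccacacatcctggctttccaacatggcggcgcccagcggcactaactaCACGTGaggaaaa
Pes1: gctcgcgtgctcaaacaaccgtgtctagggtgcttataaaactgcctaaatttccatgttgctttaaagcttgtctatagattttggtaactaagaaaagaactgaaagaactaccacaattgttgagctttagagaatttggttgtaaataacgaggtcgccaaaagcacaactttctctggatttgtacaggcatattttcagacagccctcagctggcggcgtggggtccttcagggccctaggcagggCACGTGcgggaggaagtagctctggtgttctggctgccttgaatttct
Ltv1: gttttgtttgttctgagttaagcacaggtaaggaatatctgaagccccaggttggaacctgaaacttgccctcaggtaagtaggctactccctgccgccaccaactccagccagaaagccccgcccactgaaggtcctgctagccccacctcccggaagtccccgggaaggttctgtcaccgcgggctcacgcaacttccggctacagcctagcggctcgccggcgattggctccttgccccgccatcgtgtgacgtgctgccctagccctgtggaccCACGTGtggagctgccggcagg
In all 5 the E-box lay just after the transcript start, with its first base 40, 17, 37, 2 and 28 bases downstream in the order shown. With the block, 5 of 9 E-box genes and 17 of 28 others fell with romidepsin at 30 nM in CD8 cells, at medians of -0.37 and -0.61, and 6 of 9 and 16 of 28 fell with vorinostat at 10 µM, at medians of -0.56 and -0.64, against 24.6% and 32.4% of all genes at these doses. There 0 of 9 E-box genes and 1 of 28 others rose with romidepsin, and 1 and 2 with vorinostat. In CD4 cells 1 of 9 and 5 of 28 fell and 3 and 10 rose with romidepsin at 30 nM, against 28.3% of all genes lower and 35.4% higher. With vorinostat at 10 µM 4 of 9 and 9 of 28 fell and 3 and 5 rose there, against 29.3% and 31.9%. Whether E-box genes differed from the others was not tested.

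In CD8 cells the ribosome biogenesis genes were lower with both drugs, and more of them passed the test as the dose went up. The deepest falls were in the snoRNP proteins Nop56 and Dkc1, the polymerase subunit Polr1b, the spermidine synthase Srm, the processome protein Utp20 and the nucleolar GTPase Gnl3. Npm1, which had the highest mean array level of the members, stayed within a narrow range. With romidepsin at 2 nM no member passed in either fit, where 0% of all genes did, and none had an unadjusted p under 0.05 in either fit; the median change of the 43 was -0.10. At 10 nM, 42 of 43 lay below 0 with a median of -0.51, against -0.02 for all genes. None passed without the block, where 0.0101% of all genes fell and 1.11% rose, although 12 had an unadjusted p under 0.05. With the block 22 fell (51.2%) and none rose, against 8.13% of all genes lower and 9.06% higher. At 30 nM, 13 fell (30.2%) and none rose, against 2.93% and 7.89% of all genes; with the block 26 fell (60.5%) and Ddx10 rose, against 24.6% and 27.8%. The median was -0.59, at -0.66 and -0.57 in the replicates.

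With vorinostat at 0.5 µM in CD8 cells no member passed in either fit, where 0% of all genes did without the block and 1.13% with it; 1 member had an unadjusted p under 0.05 without the block and 8 with it. At 2 µM the 43 genes had a median of -0.63, and Polr1b, Utp20, Srm, Gnl3, Bop1, Nop16 and Ppan fell. Those 7 are 16.3% of the members, against 0.750% of all genes lower and 2.55% higher. With the block 31 fell (72.1%) and none rose, against 20.5% and 16.4%. At 10 µM, 18 fell (41.9%) and none rose, against 8.50% and 12.1% of all genes. With the block 26 fell (60.5%), against 32.4% of all genes, and Ddx10, Imp3 and Imp4 rose, against 31.6%. The romidepsin and the vorinostat groups were each set against the same 2 CD8 control arrays. The counts without the block depended on single arrays: with romidepsin at 30 nM the 13 became 4 without control replicate 1, 5 without drug replicate 1 and 8 without control replicate 2, and with vorinostat at 10 µM the 18 became 9 without drug replicate 1, 11 without control replicate 1 and 12 without control replicate 2. With vorinostat at 2 µM the 7 became 1 without control replicate 1, control replicate 2 or drug replicate 1, and 2 without drug replicate 2.

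**Figure D1:**
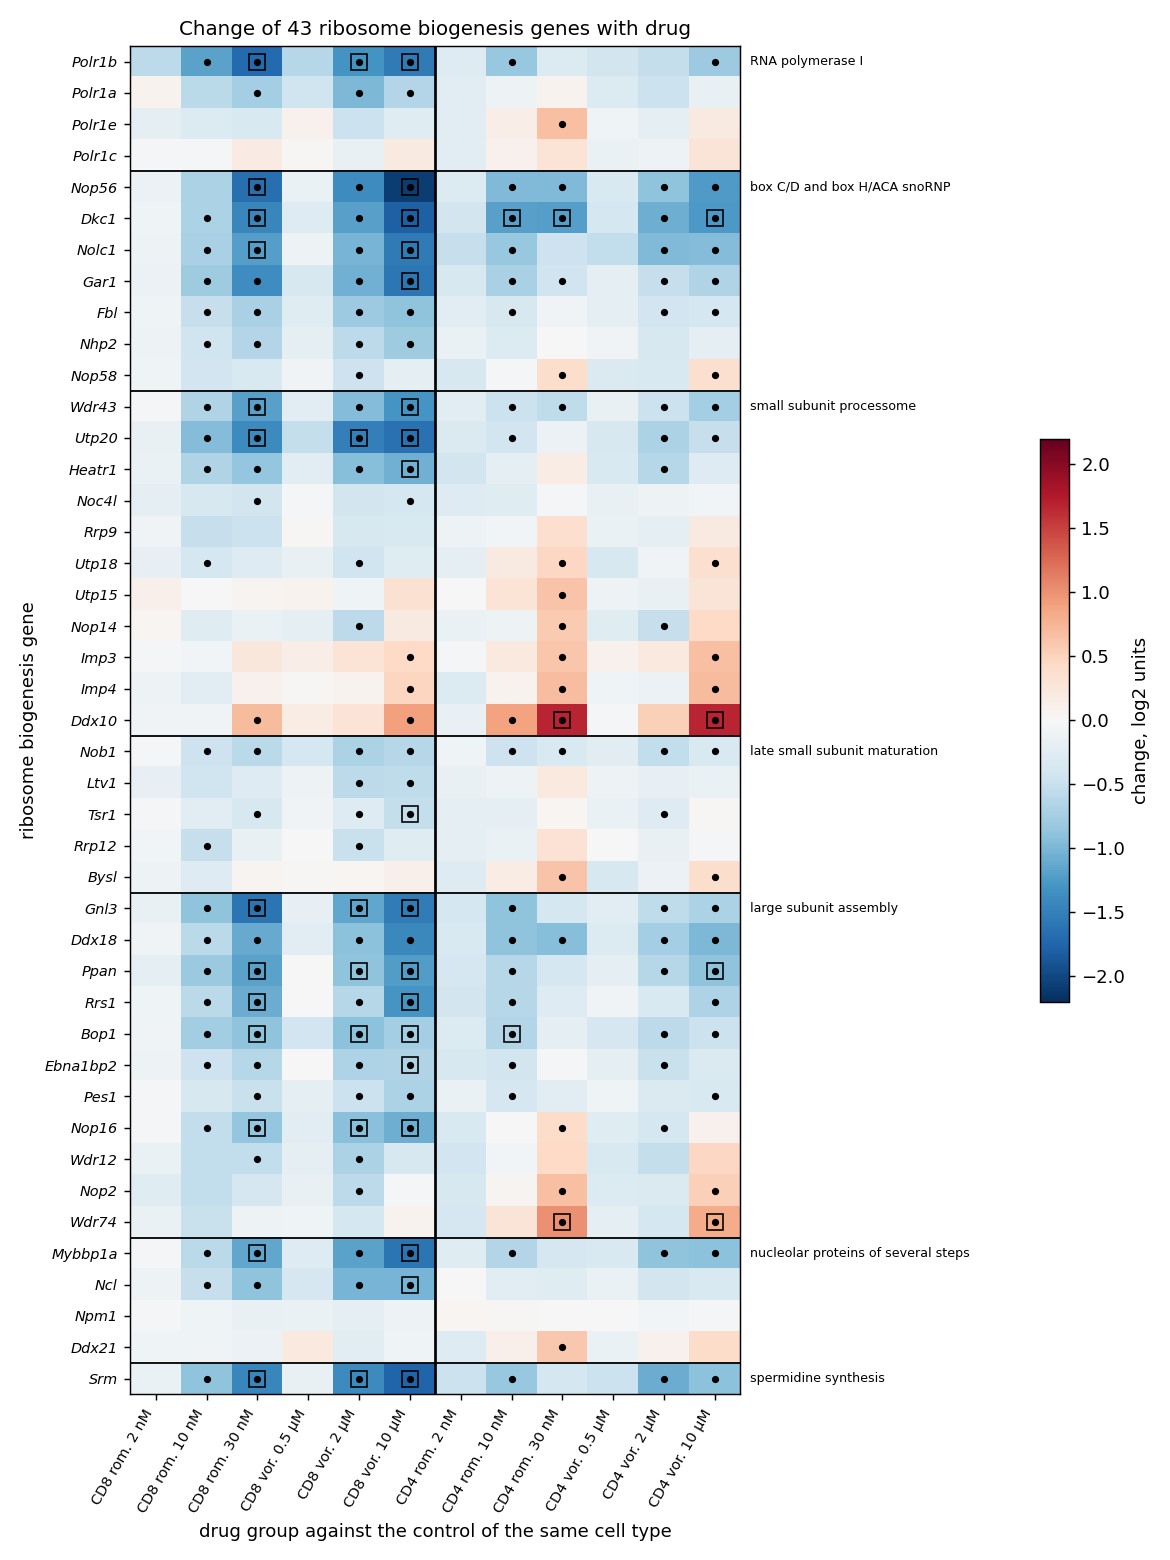
Change of each of 43 ribosome biogenesis genes (rows, grouped by role) in log2 units in each drug group against the control of the same cell type (columns, CD8 left and CD4 right, doses rising). Squares mark an adjusted p under 0.05 in the fit without the block and dots the same with it; the CD8 columns hold 18 squares with vorinostat at 10 µM, all on falls, and the CD4 top-dose columns hold both colours.

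In CD4 cells at the top doses, part of the genes were higher and part lower. With romidepsin at 2 nM none passed in either fit, against 0.0304% of all genes without the block and 0.922% with it, at an unadjusted p under 0.05 for 1 and 12 members. At 10 nM Dkc1 and Bop1 fell, 4.65% of members against 2.32% of all genes lower and 6.32% higher. With the block 18 fell (41.9%) and Ddx10 rose (2.33%), against 22.0% and 26.2%. At 30 nM the median change was 0.00, Dkc1 fell, and Ddx10 and Wdr74 rose, against 7.91% of all genes lower and 13.3% higher. With the block 6 fell and 13 rose (30.2%), and both shares of the 43 lay under the 28.3% and 35.4% of all genes. Vorinostat at 0.5 µM moved no member past the test in either fit, against 0.0101% and 0.253% of all genes; 0 members without the block and 10 with it had an unadjusted p under 0.05. At 2 µM the median was -0.38 with no member past the test without the block, against 0.334% of all genes lower and 1.08% higher, and 8 had an unadjusted p under 0.05. With the block 19 fell (44.2%) and none rose, against 15.9% and 12.4%. At 10 µM Dkc1 and Ppan fell, and Ddx10 and Wdr74 rose, against 7.10% of all genes lower and 10.9% higher. With the block 17 fell (39.5%) and 8 rose (18.6%), against 29.3% and 31.9%.

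The beta-actin difference given above moved with dose, so its part in the changes at the top doses and that of the drug cannot be told apart. With that difference added to the blocked fit as a covariate, 2 members rose and 2 fell with romidepsin at 30 nM, and none rose and 6 fell with vorinostat at 10 µM. The same covariate left 22.6% of all genes higher and 18.1% lower with romidepsin and 14.1% higher and 13.1% lower with vorinostat, so calls over all genes dropped too. In CD8 cells with this covariate 33 members fell with romidepsin at 30 nM and 29 with vorinostat at 10 µM, and none rose, against 22.2% and 21.0% of all genes lower and 24.1% and 18.1% higher. Why the counts moved differently in the 2 cell types was not tested.

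Among the 4 RNA polymerase I subunits, Polr1b, the second-largest subunit of the enzyme, moved most. In replicate 1 CD8 arrays it read 7.21 in the control and 6.42, 5.59 and 5.53 with romidepsin at 2, 10 and 30 nM, and in replicate 2 it read 7.04 in the control and 6.70, 6.32 and 5.31. Polr1b fell by 1.71 ± 0.31 with romidepsin at 30 nM (adjusted p = 0.00187 by limma) and by 1.55 ± 0.31 with vorinostat at 10 µM (adjusted p = 0.00217), and by 1.32 ± 0.31 already with vorinostat at 2 µM. In these groups all drug arrays lay below both CD8 controls. In CD4 cells Polr1b read 5.53 and 5.51 with romidepsin at 30 nM, where the controls read 6.04 and 5.61, a change of -0.30 that did not pass in either fit, while its changes of -0.83 with romidepsin at 10 nM and -0.80 with vorinostat at 10 µM passed with the block. Polr1a, the catalytic largest subunit, changed by -0.75 with romidepsin at 30 nM and -0.64 with vorinostat at 10 µM in CD8 cells, past the test only with the block, and by -1.28 and -0.23 in the replicates with romidepsin, so replicate 1 carried most of the change. By the used probe sets Polr1c, which RNA polymerase III shares, and Polr1e did not fall in any group in either fit. Polr1e rose by 0.67 with romidepsin at 30 nM in CD4 cells with the block only. Another Polr1e probe set, tested by itself, changed by -0.45 with vorinostat at 10 µM in CD8 cells. It passed with the block only (adjusted p = 0.0241 by limma).

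The box C/D and box H/ACA snoRNP proteins had the lowest median change in CD8 cells at the top doses among the roles with several members. These particles place the methyl groups and pseudouridines on ribosomal RNA. Of the 7 members, 6 fell with the block with romidepsin at 30 nM and 6 with vorinostat at 10 µM in CD8 cells, at medians of -1.21 and -1.56, and 3 and 4 fell without it. Of all genes, 24.6% and 32.4% fell with the block at these doses, and 2.93% and 8.50% without it. Nop56, a core protein of box C/D particles, fell to 9.69 and 10.54 with vorinostat at 10 µM and to 10.1 and 11.01 with romidepsin at 30 nM in CD8 cells, where the controls read 12.16 and 12.26. Nop56 fell by 2.09 ± 0.47 with vorinostat (adjusted p = 0.00448 by limma), the largest change of any member in the 12 drug groups, and fell by 1.66 ± 0.47 with romidepsin (adjusted p = 0.0307). The doses ran in order, since replicate 1 CD8 arrays read 12.02, 11.27 and 10.1 at 2, 10 and 30 nM of romidepsin and 12.12, 10.46 and 9.69 at 0.5, 2 and 10 µM of vorinostat. Dkc1, dyskerin, is the pseudouridine synthase of box H/ACA particles and of telomerase. By the used probe sets, without the block, only Dkc1 fell in CD4 and CD8 cells at the top dose of both drugs. It read 10.75 and 11.22 with romidepsin at 30 nM and 10.36 and 10.9 with vorinostat at 10 µM in CD8 cells, where the controls read 12.49 and 12.35. In CD4 cells it read 10.15 and 10.54 with romidepsin at 30 nM and 10.04 and 10.55 with vorinostat at 10 µM, where the controls read 11.6 and 11.51. No drug array at the top doses overlapped its controls, and the changes were -1.43 ± 0.32 and -1.79 ± 0.32 in CD8 cells (adjusted p = 0.00807 and 0.000948 by limma) and -1.21 ± 0.32 and -1.26 ± 0.32 in CD4 cells (adjusted p = 0.0127 and 0.0115). Tested by themselves, the other Dkc1 probe sets over the detection level passed in these groups with the block only. Another Ddx18 probe set passed there without the block (adjusted p = 0.00105 and 0.000112 in CD8 cells, 0.00452 and 0.00162 in CD4 cells by limma). With the block Nop56, Ddx18, Wdr43 and Nob1 were among the members that also fell in all of these groups.

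Gar1, which joins dyskerin in box H/ACA particles, fell by 1.59 ± 0.43 with vorinostat at 10 µM in CD8 cells (adjusted p = 0.014 by limma) and changed by -1.36 with romidepsin at 30 nM, past the test only with the block (adjusted p = 0.0515 without it). Nolc1, a chaperone that carries snoRNPs, fell to 8.82 and 9.28 with romidepsin at 30 nM and to 8.65 and 8.74 with vorinostat at 10 µM in CD8 cells, where the controls read 10.27 and 10.24. Those are changes of -1.21 ± 0.32 and -1.56 ± 0.32. Fibrillarin (Fbl), the methyltransferase of box C/D particles, and Nhp2 of the box H/ACA particles fell in CD8 cells only with the block, with changes of -0.72 and -0.88 for Fbl and -0.64 and -0.78 for Nhp2 at the top doses of romidepsin and vorinostat. Nop58, the partner of Nop56 in box C/D particles, read 11.05 and 11.15 with romidepsin at 30 nM in CD8 cells, where the controls read 11.35 and 11.51, a change of -0.33 that did not pass in either fit. Nop58 changed by -0.46 with vorinostat at 2 µM in CD8 cells, past the test with the block only, and by -0.21 at 10 µM, which did not pass. In CD4 cells it rose with the block by 0.39 with romidepsin at 30 nM and by 0.36 with vorinostat at 10 µM.

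**Figure D2:**
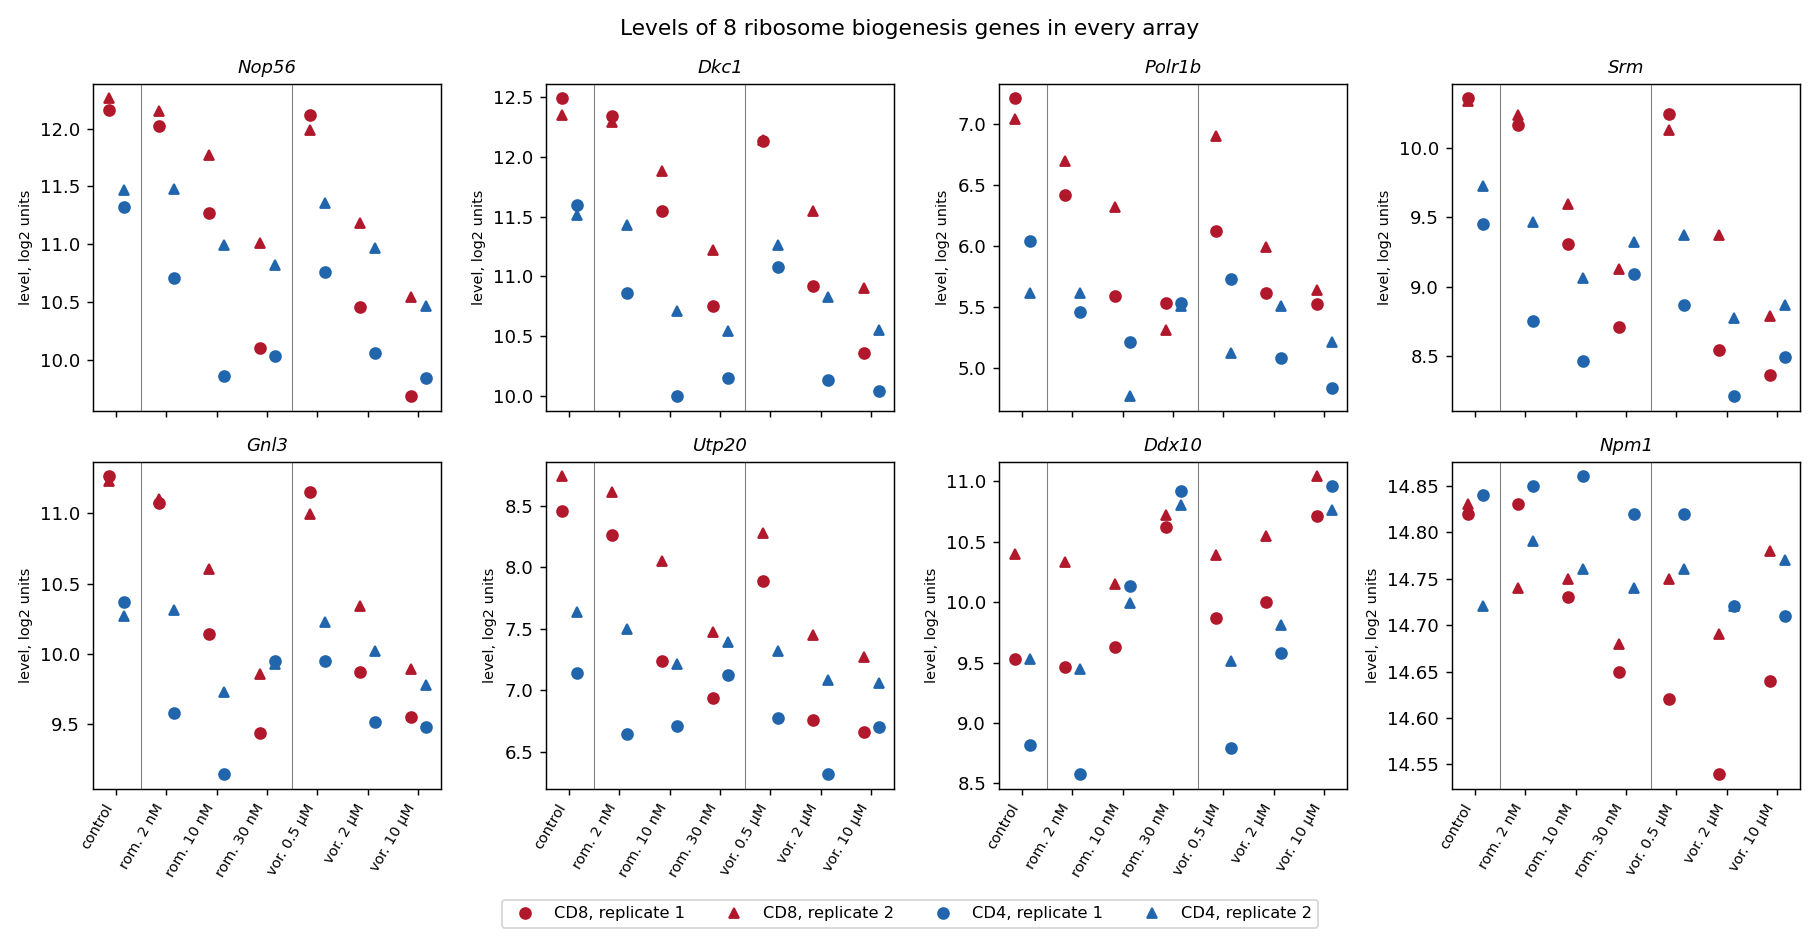
Level in log2 units (vertical axis, its range set per panel) of 8 members in all 28 arrays by dose (horizontal axis), with CD8 cells in red to the left of CD4 cells in blue, circles for replicate 1 and triangles for replicate 2. Nop56, Dkc1, Polr1b, Srm, Gnl3 and Utp20 step down in CD8 cells from 2 to 30 nM of romidepsin, Ddx10 goes up at the top doses, and Npm1 stays between 14.54 and 14.86.

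The small subunit processome, which folds and cuts the part of the precursor that becomes 18S RNA, held members that moved opposite ways. In CD8 cells 4 of its 11 members fell with the block and Ddx10 rose with romidepsin at 30 nM, and 4 fell and Ddx10, Imp3 and Imp4 rose with vorinostat at 10 µM. In CD4 cells 1 fell and 6 rose with romidepsin at 30 nM, and 2 fell and 4 rose with vorinostat at 10 µM. With the block the shares of all genes were 24.6% lower and 27.8% higher with romidepsin and 32.4% and 31.6% with vorinostat in CD8 cells, and 28.3% and 35.4%, and 29.3% and 31.9%, in CD4 cells. Utp20, a very large scaffold protein of the processome, read 6.94 and 7.47 with romidepsin at 30 nM and 6.66 and 7.27 with vorinostat at 10 µM in CD8 cells, where the controls read 8.46 and 8.74. It changed by -1.40 ± 0.39 and -1.64 ± 0.39 there (adjusted p = 0.0303 and 0.00727 by limma) and by -1.50 ± 0.39 with vorinostat at 2 µM (adjusted p = 0.0484). In CD4 cells the top doses gave 7.12 and 7.39 with romidepsin and 6.7 and 7.06 with vorinostat, where the controls read 7.14 and 7.64, and only vorinostat passed, with the block (-0.51). Wdr43 fell by 1.19 ± 0.32 with romidepsin at 30 nM and by 1.30 ± 0.32 with vorinostat at 10 µM in CD8 cells, and Heatr1, which also takes part in RNA polymerase I transcription, fell by 1.06 ± 0.33 with vorinostat.

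Ddx10, an RNA helicase whose yeast counterpart Dbp4 works in the processome, ran against the falls. In CD4 cells it read 10.92 and 10.8 with romidepsin at 30 nM and 10.96 and 10.76 with vorinostat at 10 µM, where the controls read 8.82 and 9.53, and the groups did not overlap. Ddx10 rose by 1.68 ± 0.39 in both (adjusted p = 0.00553 and 0.00627 by limma), by 2.10 and 1.27 in the replicates with romidepsin and 2.14 and 1.23 with vorinostat. In CD8 cells it changed by 0.70 with romidepsin at 30 nM and 0.91 with vorinostat at 10 µM, past the test only with the block. A second Ddx10 probe set changed by 1.29 and 1.37 in CD4 cells and, tested by itself, passed with the block only (adjusted p = 0.0752 and 0.0669 by limma without it). With the beta-actin covariate the CD4 change was 0.68 with romidepsin (adjusted p = 0.0023 by limma) and 0.43 with vorinostat (adjusted p = 0.0724), and the CD8 change with vorinostat was -0.30 (adjusted p = 0.163).

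Imp3 and Imp4, which bind the U3 snoRNA and pair it with the precursor, rose with the block in CD4 cells by 0.61 and 0.68 with romidepsin at 30 nM and by 0.66 and 0.69 with vorinostat at 10 µM, and passed in none of these groups without it. Nop14, Utp15 and Utp18 rose with the block by 0.58, 0.63 and 0.46 with romidepsin at 30 nM in CD4 cells. Another Utp15 probe set, tested by itself, changed by 0.19 there and did not pass in either fit. In CD8 cells that probe set changed by -0.48 with romidepsin at 30 nM and -0.63 with vorinostat at 10 µM, past the test with the block only. The used Utp15 probe set changed by 0.06 and 0.33 in these CD8 groups and did not pass. Noc4l changed by -0.40 with romidepsin at 30 nM and -0.38 with vorinostat at 10 µM in CD8 cells, past the test with the block only. For Rrp9, which is specific to the U3 particle, 9 of the 14 replicate 1 arrays held one repeated value, 5.78, so its changes in replicate 1 cannot be read as measured differences, and it passed in no group. Rrp9 was named after its values were seen. For Heatr1, 3 replicate 1 arrays held one value, 7.83.

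The 5 late small subunit factors complete the particle on its way to the cytoplasm. Tsr1, a GTPase-like protein of that step, fell by 0.52 ± 0.17 with vorinostat at 10 µM in CD8 cells (adjusted p = 0.038 by limma). Nob1, the nuclease that makes the last cut of 18S RNA, changed by -0.59 with romidepsin at 30 nM and -0.63 with vorinostat at 10 µM in CD8 cells and by -0.33 and -0.33 in CD4 cells, past the test in all 4 only with the block; 3 replicate 1 arrays of Nob1 held one value, 7.67. Bysl rose with the block by 0.62 with romidepsin at 30 nM and by 0.39 with vorinostat at 10 µM in CD4 cells, and changed by 0.06 and 0.11 in CD8 cells. Ltv1 changed by -0.56 with vorinostat at 10 µM in CD8 cells, past the test with the block, and Rrp12 fell with the block at the middle doses in CD8 cells.

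Large subunit assembly held 11 measured members, and in CD8 cells none of them rose in either fit. With romidepsin at 30 nM 5 fell, or 9 in the blocked fit, and the median was -0.85, against 2.93% of all genes lower, or 24.6% in the blocked fit. With vorinostat at 10 µM 6 fell, or 8 in the blocked fit, and the median was -0.75, against 8.50% and 32.4% of all genes. Gnl3, nucleostemin, a nucleolar GTPase of growing cells, read 9.44 and 9.86 with romidepsin at 30 nM and 9.55 and 9.89 with vorinostat at 10 µM in CD8 cells, where the controls read 11.26 and 11.23. Gnl3 changed by -1.60 ± 0.28 and -1.53 ± 0.28 (adjusted p = 0.00151 and 0.00122 by limma), and no drug array reached a control. In CD4 cells Gnl3 read 9.95 and 9.93 with romidepsin at 30 nM, where the controls read 10.37 and 10.27, which did not pass, and changed by -0.69 with vorinostat at 10 µM, which passed with the block. Ppan, a nucleolar assembly factor, changed by -1.18 ± 0.22 and -1.23 ± 0.22 in CD8 cells at the top doses of romidepsin and vorinostat (adjusted p = 0.00208 and 0.000848), and by -0.89 ± 0.22 with vorinostat at 10 µM in CD4 cells (adjusted p = 0.009). Rrs1, which brings the 5S particle into the large subunit, changed by -1.10 ± 0.25 and -1.30 ± 0.25 in CD8 cells at these doses and fell at both.

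Pes1, Bop1 and Wdr12 form the PeBoW complex of large subunit assembly, and its members did not move by the same amount. Bop1 fell by 0.88 ± 0.19 with romidepsin at 30 nM and by 0.75 ± 0.19 with vorinostat at 10 µM in CD8 cells (adjusted p = 0.00547 and 0.00844 by limma), and by 0.65 ± 0.19 with romidepsin at 10 nM in CD4 cells (adjusted p = 0.0387). Pes1 changed by -0.49 and -0.69 in CD8 cells at the same 2 doses and Wdr12 by -0.55 with romidepsin, all past the test only with the block. Ddx18, an RNA helicase, changed by -1.11 with romidepsin at 30 nM in CD8 cells with an adjusted p of 0.376 by limma and 1.21e-05 with the block. It read 8.67 and 9.5 with drug, where the controls read 9.9 and 10.49. Another Ddx18 probe set changed by -1.1 there and, tested by itself, passed without the block (adjusted p = 0.00105 by limma). Nop16 read 9.15 and 9.13 with romidepsin at 30 nM and 8.93 and 8.91 with vorinostat at 10 µM in CD8 cells, where the controls read 10.02 and 9.96, and changed by -0.85 ± 0.14 and -1.07 ± 0.14 (adjusted p = 0.00107 and 8.47e-05). In CD4 cells it read 9.39 and 9.27 with romidepsin at 30 nM, where the controls read 8.97 and 8.89, a rise of 0.40 with the block. Wdr74 rose in CD4 cells by 1.01 ± 0.27 with romidepsin at 30 nM and by 0.82 ± 0.27 with vorinostat at 10 µM (adjusted p = 0.0143 and 0.0493), and by 0.50 and 0.18 with the beta-actin covariate, neither of which passed.

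The nucleolar proteins of several steps differed in how far they moved. Mybbp1a read 10.25 and 10.87 with romidepsin at 30 nM and 9.89 and 10.33 with vorinostat at 10 µM in CD8 cells, where the controls read 11.62 and 11.8, and changed by -1.15 ± 0.34 and -1.60 ± 0.34 (adjusted p = 0.0415 and 0.00347 by limma). In CD4 cells it changed by -0.37 and -0.9 at these doses, and only the vorinostat change passed, with the block. Another Mybbp1a probe set, tested by itself, changed there by -0.36 and -1.63. Its vorinostat change passed without the block (adjusted p = 0.0054 by limma). Nucleolin (Ncl), which loosens nucleolar chromatin, fell by 1.02 ± 0.28 with vorinostat at 10 µM in CD8 cells (adjusted p = 0.0164). Ddx21, a helicase that links RNA polymerase I and II transcription, rose with the block by 0.59 with romidepsin at 30 nM in CD4 cells. Npm1, nucleophosmin, named after its values were seen, passed in no group in either fit and read 14.65 and 14.68 with romidepsin at 30 nM in CD8 cells, where the controls read 14.82 and 14.83. The brightest value of an array lay between 16.18 and 16.73, and whether nearness to the top of the scale narrowed the changes of Npm1 was not tested.

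Srm, spermidine synthase, makes the polyamine that growing cells need and is a known MYC target. It read 8.71 and 9.13 with romidepsin at 30 nM and 8.36 and 8.79 with vorinostat at 10 µM in CD8 cells, where the controls read 10.36 and 10.34. Srm changed by -1.43 ± 0.33 and -1.77 ± 0.33 there (adjusted p = 0.00903 and 0.00116 by limma) and by -1.40 ± 0.33 with vorinostat at 2 µM (adjusted p = 0.0258). In CD4 cells the changes were -0.83 with romidepsin at 10 nM, -0.38 at 30 nM, -1.10 with vorinostat at 2 µM and -0.91 at 10 µM, of which all but that at 30 nM passed with the block and none without it.

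Without drug, stimulated CD8 cells held more of these transcripts than stimulated CD4 cells. Of the 43 members, 41 were higher in the CD8 controls, at a median of 0.75 log2 units (0.83 and 0.66 in the replicates), against 0.06 for all genes. Polr1b, Nolc1, Nop16, Wdr74, Rrs1, Ppan, Bop1 and Ebna1bp2 were higher in CD8 controls by the test, 18.6% of members against 2.42% of all genes. Those 8 became 1 without either CD8 control array and 3 without either CD4 control array. With the block 36 were higher (83.7%), against 21.2% of all genes, and none was lower. Polr1b read 7.21 and 7.04 in CD8 controls, against 6.04 and 5.61 in CD4 controls, a difference of 1.30 ± 0.31 (adjusted p = 0.0163 by limma). Nop16 read 10.02 and 9.96 in CD8 controls, against 8.97 and 8.89 in CD4 controls, and its difference of 1.06 ± 0.14 had the smallest p of the members (adjusted p = 0.000149). Nolc1 was higher by 1.25 ± 0.32 and Utp20, with 1.22 ± 0.39, passed only with the block. Polr1c and Rrp12 lay below 0, at -0.22 and -0.11, and Npm1 differed by 0.05.

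**Figure D3:**
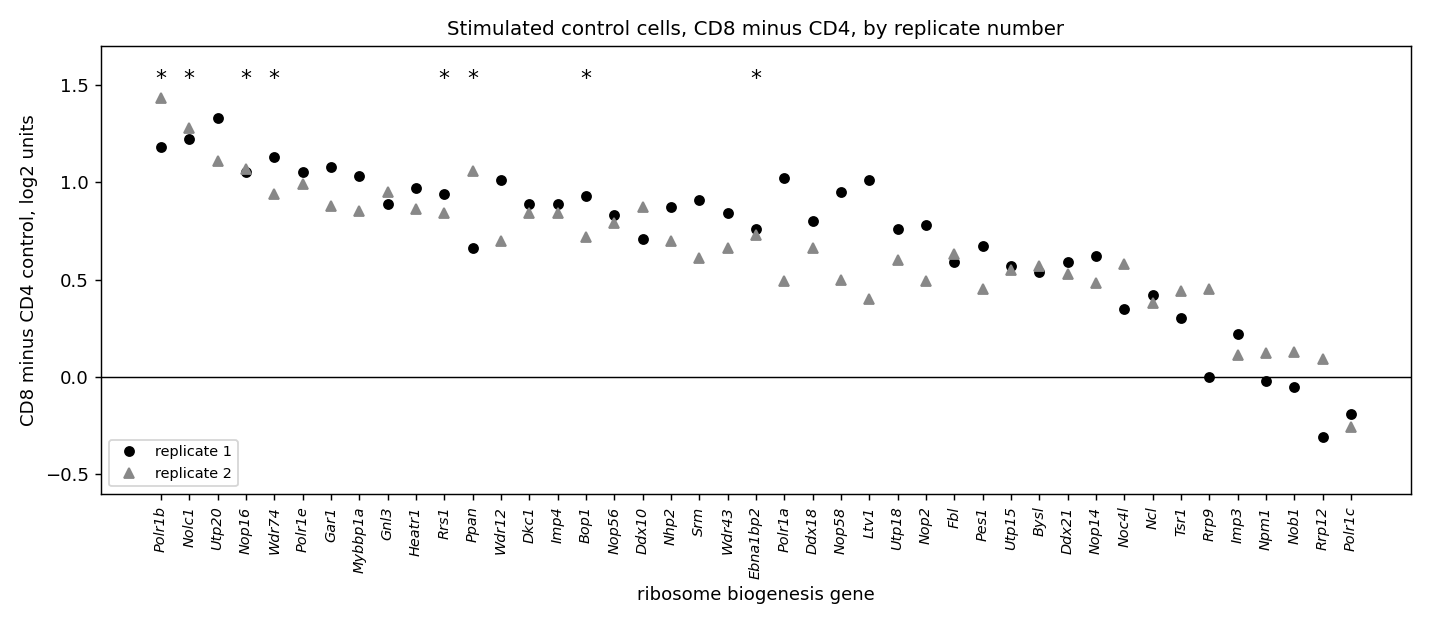
Difference between CD8 and CD4 control arrays in log2 units (vertical axis) for each of 43 members (horizontal axis, ordered by the mean difference), circles for replicate 1 and triangles for replicate 2; an asterisk marks an adjusted p under 0.05 without the block. The 8 asterisks stand over genes higher in CD8 cells, and Polr1c at the right end is lower in both replicates.

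That difference was smaller at the higher doses. The median CD8 minus CD4 level of the 43 members was 0.75 in the controls, 0.97, 0.47 and -0.03 with romidepsin at 2, 10 and 30 nM, and 0.87, 0.46 and 0.14 with vorinostat at 0.5, 2 and 10 µM. Members higher in CD8 cells numbered 41 in the controls, 41, 37 and 18 along the romidepsin doses, and 39, 38 and 32 along the vorinostat doses. The median over all tested genes lay between -0.02 and 0.06 in every dose and replicate. With romidepsin at 30 nM the member medians were -0.07 and -0.02 in the replicates.

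**Figure D4:**
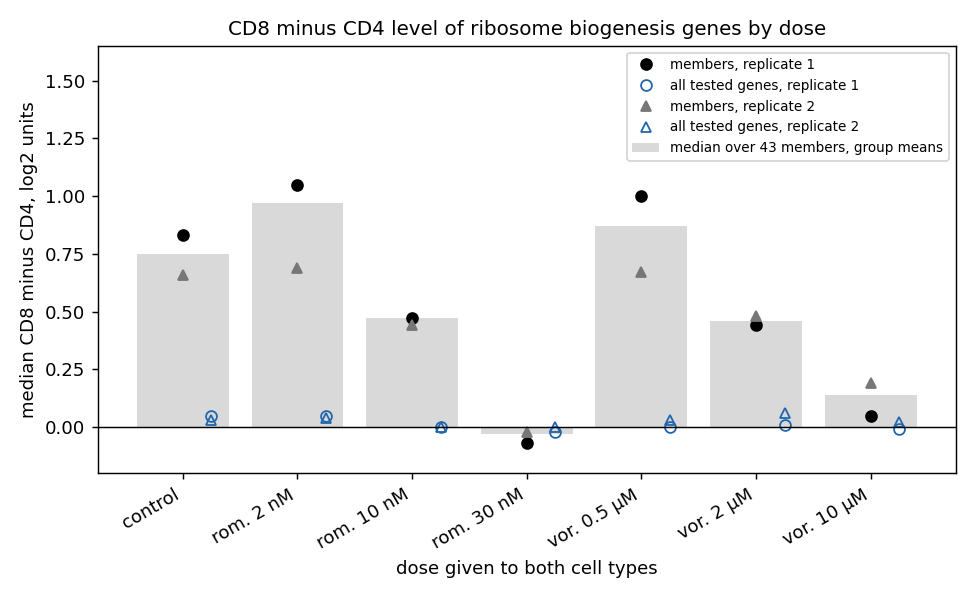
Median difference in level between CD8 and CD4 cells at the same dose in log2 units (vertical axis) over 43 members, by dose (horizontal axis); bars give the difference of group means, filled symbols the members in each replicate and open symbols all tested genes. Bars drop to -0.03 with romidepsin at 30 nM and 0.14 with vorinostat at 10 µM, against 0.75 in the controls.

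The difference between the responses of CD8 and CD4 cells was tested as an interaction. It shares its control arrays with the control difference above, so the larger fall in CD8 cells and the higher CD8 controls are not independent observations. For romidepsin at 30 nM all 43 members lay below 0, at a median of -0.71, against -0.07 for all genes. Nop16 passed (-1.24 ± 0.20, adjusted p = 0.00654 by limma), 2.33% of members against 0.152% of all genes, and 20 passed with the block (46.5%), against 9.13%. For vorinostat at 10 µM 42 of 43 lay below 0, at a median of -0.53. Nop16 passed again (-1.16 ± 0.20, adjusted p = 0.0115), against 0.0507% of all genes, and 6 of 43 passed with the block, against 5.32%. With the mean over probe sets in place of the brightest one, no member passed without the block for either drug at these doses. The Nop16 calls also did not hold in every fit that left out an array. At the middle doses none passed without the block for romidepsin at 10 nM, against 0.0405% of all genes, and Nop16 passed with it, against 4.82%. None passed in either fit for vorinostat at 2 µM, against 0% and 0.304% of all genes, where 1 member without and 7 with the block had an unadjusted p under 0.05. For an interaction the 95% interval extended by a median of 1.38 log2 units on either side, and by 0.50 in the blocked fit.

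Further genes of the pathway were followed from lists taken from general knowledge, chosen with earlier results of these data known. Of 86 further ribosome biogenesis factors tested, 31 fell and 5 rose with the block with romidepsin at 30 nM in CD8 cells, at a median of -0.21, and 32 fell and 10 rose with vorinostat at 10 µM, at -0.19. In CD4 cells 9 fell and 35 rose with romidepsin at 30 nM, at a median of 0.21, and 13 fell and 21 rose with vorinostat at 10 µM, at 0.09. In the controls 51 were higher and 2 lower in CD8 cells with the block, at a median of 0.50. Of all genes, 24.6% were lower and 27.8% higher with romidepsin and 32.4% and 31.6% with vorinostat in CD8 cells, 28.3% and 35.4%, and 29.3% and 31.9%, in CD4 cells, and 21.2% higher in the CD8 controls. Pwp2, a processome protein, changed by -1.83 with romidepsin at 30 nM and -1.71 with vorinostat at 10 µM in CD8 cells, past the test with the block only. Rrp15 fell by 1.80 ± 0.44 with vorinostat at 10 µM in CD8 cells (adjusted p = 0.00771 by limma), and Rbm28 rose by 1.62 ± 0.24 with romidepsin at 30 nM and 1.56 ± 0.24 with vorinostat at 10 µM in CD4 cells (adjusted p = 0.000177 and 0.000311).

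The RNA exosome, which trims ribosomal RNA precursors, had 11 tested subunits. With the block 7 fell and none rose with romidepsin at 30 nM and 5 fell and 1 rose with vorinostat at 10 µM in CD8 cells, against the same 24.6% and 32.4% of all genes lower. In CD4 cells 3 fell and 6 rose with romidepsin and 4 fell and 6 rose with vorinostat, against 28.3% and 29.3% of all genes lower and 35.4% and 31.9% higher. The difference between the cell types was not tested for this list. Exosc8 changed by -1.09 in CD8 cells and -1.45 in CD4 cells with romidepsin at 30 nM, and by -1.53 and -1.43 with vorinostat at 10 µM, all past the test with the block only. Exosc10, its nuclear exonuclease, fell by 1.41 ± 0.31 with romidepsin at 30 nM and by 1.68 ± 0.31 with vorinostat at 10 µM in CD8 cells (adjusted p = 0.00753 and 0.00128 by limma), and by 1.24 ± 0.31 with vorinostat at 10 µM in CD4 cells (adjusted p = 0.0108). Of 11 further RNA polymerase I genes, 4 fell and none rose with the block with romidepsin at 30 nM and 4 fell and 3 rose with vorinostat at 10 µM in CD8 cells, and 2 fell and 4 rose at each of these doses in CD4 cells, against the shares of all genes just given. Cd3eap, a subunit of the enzyme, rose by 0.96 ± 0.32 with romidepsin at 30 nM in CD4 cells (adjusted p = 0.0417 by limma). Ubtf, the factor that opens ribosomal DNA, changed by -1.66 with romidepsin at 30 nM and -1.93 with vorinostat at 10 µM in CD8 cells. In CD4 cells it changed by -1.35 and -1.46 at these doses, and all 4 changes passed only with the block. Of 12 RNA polymerase III genes, Brf1, a subunit of its initiation factor, rose by 1.55 ± 0.47 with vorinostat at 10 µM in CD8 cells (adjusted p = 0.0283). Polr3g, which growing cells use in place of Polr3gl, rose by 1.29 ± 0.31 with romidepsin at 30 nM in CD4 cells (adjusted p = 0.00708). With vorinostat at 10 µM Polr3g rose there by 1.09 ± 0.31 (adjusted p = 0.0215 by limma). In CD8 cells Polr3gl changed by 1.11 and 1.09 and Polr3e by -0.71 and -1.24 at these doses, past the test with the block only. Polr3b changed by -0.9 with vorinostat at 10 µM in CD4 cells, also with the block only.

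The proteins of the ribosome itself stayed close to 0. Of 23 large subunit proteins tested, 1 fell with the block with romidepsin at 30 nM and 2 fell and 1 rose with vorinostat at 10 µM in CD8 cells, at medians of 0.02 and 0.05. Of 22 small subunit proteins, 1 fell at each of these doses, at medians of 0.03 and 0.05. With the block the shares of all genes there were 24.6% lower and 27.8% higher with romidepsin and 32.4% and 31.6% with vorinostat. In CD4 cells Rpl37 rose with the block by 0.31 and 0.27 and Rps25 by 0.5 and 0.44 at these doses. With vorinostat there Rpl12 and Rpl14 changed by -0.66 and -0.28, past the test with the block. Of all genes, 28.3% and 29.3% were lower and 35.4% and 31.9% higher in these CD4 groups. None of either list passed without the block at the 4 top doses. Rpl12 differed from the rest, at -1.40 with romidepsin at 30 nM and -1.39 with vorinostat at 10 µM in CD8 cells, past the test with the block. Only 23 of 49 listed large and 23 of 33 listed small subunit proteins had a probe set of their own, and their median levels of 14.68 and 14.72 log2 units lay near the array maximum of 16.18 to 16.73. Whether that narrowed their changes was not tested.

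**Figure D5:**
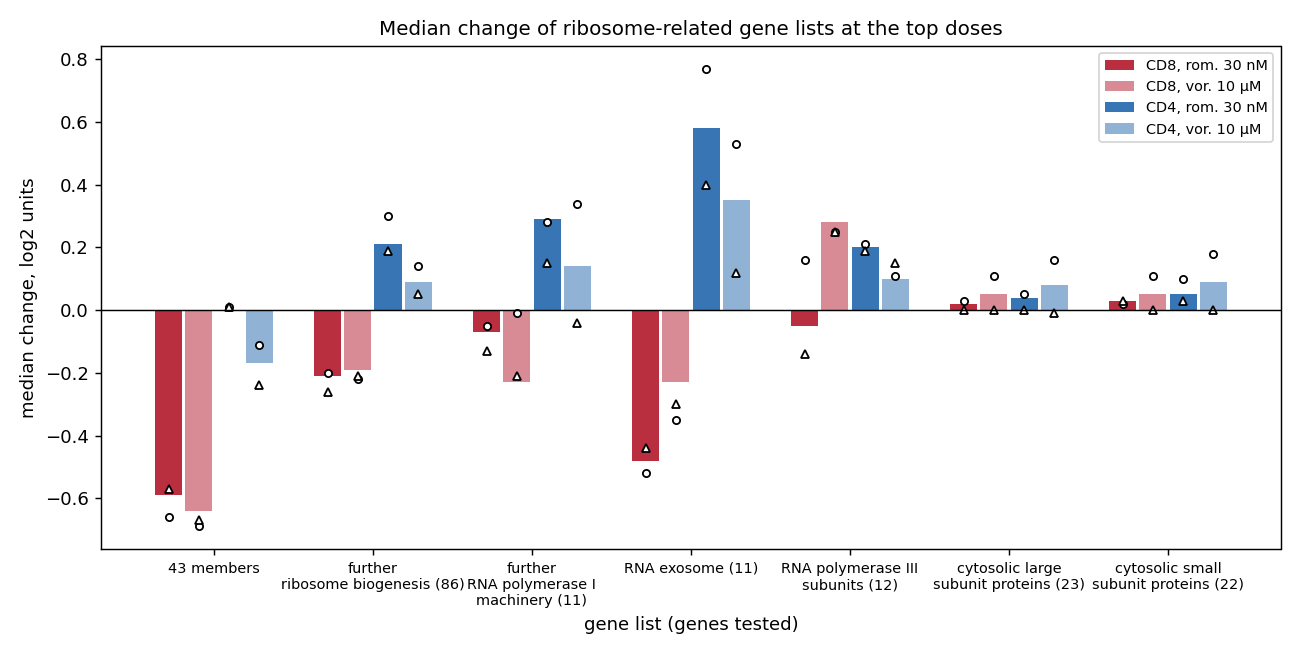
Median change in log2 units (vertical axis) of the 43 members and 6 further gene lists (horizontal axis, with the number of genes tested) at the top doses; bars give group means with CD8 in red and CD4 in blue, circles replicate 1 and triangles replicate 2. The CD8 bars of the members reach -0.59 and -0.64, while those of the ribosomal protein lists stay between 0.02 and 0.05.

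The MYC network and the polyamine genes were read beside the members. Myc itself changed by -0.97 with romidepsin at 30 nM and -2.02 with vorinostat at 10 µM in CD8 cells and by -2.54 and -2.09 in CD4 cells, past the test only with the block. At the middle doses it changed by 0.08 and 0.27 in CD8 cells. There 22 and 31 of the 43 members fell with the block, against 8.13% and 20.5% of all genes. The part of the MYC network in the changes of the members was not tested. Mxd1, which competes with MYC for its partner MAX, rose by 2.39 ± 0.29 with romidepsin at 30 nM and by 2.90 ± 0.29 with vorinostat at 10 µM in CD8 cells (adjusted p = 7.59e-05 and 8.34e-06 by limma) and by 1.50 ± 0.29 and 1.43 ± 0.29 in CD4 cells (adjusted p = 0.00164 and 0.00273). Oaz2, an antizyme that lowers polyamine synthesis, rose by 1.09 ± 0.29 and 1.24 ± 0.29 in CD8 cells and by 1.42 ± 0.29 and 1.30 ± 0.29 in CD4 cells at the same doses. Azin1, the antizyme inhibitor, rose too, by 1.0 ± 0.25 and 0.82 ± 0.25 in CD4 cells (adjusted p = 0.0102 and 0.0346 by limma). In CD8 cells Azin1 changed by 0.73 and 0.59, past the test with the block only. The effect on polyamine synthesis was not tested. Of 15 translation factors tested, Eif4ebp1, the inhibitor of cap-dependent initiation, fell by 1.59 ± 0.25 with romidepsin at 30 nM in CD4 cells (adjusted p = 0.000236), and Eef1e1 fell by 1.39 ± 0.30 with vorinostat at 10 µM in CD8 cells (adjusted p = 0.00366). Eif4ebp1 also changed by -1.74 ± 0.25 with vorinostat at 10 µM in CD4 cells (adjusted p = 0.000172 by limma). In CD8 cells it changed by -0.77 ± 0.25 with that dose (adjusted p = 0.0367 by limma). Its CD8 change of -0.62 with romidepsin at 30 nM passed with the block only.

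For 28 members more than 1 probe set names only that gene, and for 20 of them another one, 26 probe sets in all, lay over the detection level in all arrays. In the 4 top-dose groups and the control difference, the used probe set was called with the block in 83 of 130 pairs of a used and another probe set. Each probe set was then tested by itself in a limma fit over 16636 probe sets, a step added after the data were seen. There the other probe set passed with the block in 77 of those 83 pairs, and its change had the sign of the used one in all 83. Over all 130 pairs the signs were opposite in 10. In 15 pairs the other probe set passed with the block where the used one did not. Without the block the used probe set passed in 27 pairs and the other one in 8 of those 27. The used probe sets of Polr1c, Nop56, Gar1, Nhp2 and Tsr1 and of Polr1e, Noc4l and Rrs1 carry suffixes that mark a possible match to related transcripts; for Nop56 another probe set changed by -1.84 with romidepsin at 30 nM and by -2.19 with vorinostat at 10 µM in CD8 cells, which passed by itself (adjusted p = 0.0295 and 0.00605 by limma).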

How the data were processed

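RNA of 28 samples was hybridised to mouse 3′ expression arrays, 1 array a sample. The deposited log2 values were made by the authors with GCRMA, per the submitters' processing notes; its version is not given in the sources used here, and the log base was read from the values. Each gene was represented by its brightest probe set naming only that gene (34945 of 45101 probe sets name 1 gene, 932 several and 9160 none, by the platform annotation), and genes over the detection level of 4.27 in at least 2 arrays were tested.

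Group means were fitted to all 28 arrays with limma 3.58.1 in R 4.3.3 (lmFit, eBayes), with Benjamini-Hochberg adjustment per comparison and a threshold of 0.05. The step was tested on simulated data. Alternatives were a replicate block, the block with the beta-actin difference as a covariate, quantile normalization, the mean over probe sets, no detection filter, and each array left out. Same-numbered arrays deviated together: correlations of deviations from group means were 0.762 to 0.94 over 21 pairs in CD4 cells, 0.768 to 0.958 over 21 pairs in CD8 cells and 0.722 to 0.859 over 49 pairs across them. The replicate numbers come from the labels, which name no shared animal, batch or day. The array floor was 2.2684 in replicate 1 and 2.2545 in replicate 2.

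Members named are those called in a drug group, the 5 largest falls and 3 largest rises at middle and top doses, the 2 largest median changes per role, called members of the cell-type comparisons and up to 3 called genes per further list. The members and all lists were chosen with earlier results of these data known.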

Additional observations from a re-analysis of the deposited data

Results flagged for a closer look

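These members are given here because the response to a drug differed between CD8 and CD4 cells by the interaction test, without or with the block. Each value is the CD8 change minus the CD4 change in log2 units (n = 2 per group), and only Nop16 passed without the block. For romidepsin at 30 nM the values were -1.41 for Polr1b, -1.01 for Polr1e, -0.64 for Fbl, -0.71 for Nop58, -0.92 for Gar1 and -0.64 for Nhp2. They were -1.0 for Heatr1, -0.75 for Utp18, -1.27 for Utp20 and -0.39 for Tsr1 among small subunit factors. They were -0.68 for Bop1, -0.99 for Wdr12, -1.04 for Nop2, -1.24 for Nop16, -0.82 for Rrs1, -0.79 for Ppan, -1.12 for Wdr74 and -1.22 for Gnl3 among large subunit factors. Mybbp1a had -0.78 and Srm -1.05. For vorinostat at 10 µM the values were -0.91 for Gar1, -0.62 for Utp18, -1.13 for Utp20, -0.54 for Tsr1, -1.16 for Nop16 and -0.86 for Srm. For romidepsin at 10 nM Nop16 had -0.55. All of them share control arrays with the higher CD8 control levels.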

How the results depend on the processing

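Counts below are members past the threshold in either direction. With the replicate block they were 22, 27, 31 and 29 in CD8 cells for romidepsin at 10 and 30 nM and vorinostat at 2 and 10 µM, and 19, 19, 19 and 25 in CD4 cells. The CD8 to CD4 control difference had 36 with the block, and the response differences had 1, 20 and 6 for romidepsin at 10 and 30 nM and vorinostat at 10 µM. With the block and the beta-actin covariate the counts were 29, 33, 31 and 29 in CD8 cells, 1 for vorinostat at 0.5 µM in CD8 cells, 15 for romidepsin at 10 nM and 20 for vorinostat at 2 µM in CD4 cells, 37 for the controls and 2, 23, 2 and 15 for the response differences; in CD8 cells with vorinostat at 10 µM the changes of Imp3 and Ddx10 reversed to -0.11 and -0.30, and the cause was not tested. With quantile normalization they were 6, 9, 4 and 11 in CD4 cells, 3 for romidepsin at 10 nM and 11 for vorinostat at 2 µM in CD8 cells, 16 for the controls and 2 for the response to romidepsin at 30 nM. With the mean over probe sets they were 1, 5 and 7 in CD4 cells for romidepsin at 10 and 30 nM and vorinostat at 10 µM, 11 in CD8 cells for vorinostat at 2 µM, and 0 for both top-dose response differences, which had 12 and 2 members at an unadjusted p under 0.05 by limma without that change. Without the detection filter they were 1 in CD4 cells for vorinostat at 2 µM and 2 in CD8 cells for romidepsin at 10 nM. Leaving out 1 array gave 4 to 15 (romidepsin at 30 nM), 1 to 2 (vorinostat at 2 µM) and 9 to 15 (vorinostat at 10 µM) in CD8 cells, 0 to 3, 0 to 3 and 0 to 4 in CD4 cells for romidepsin at 10 and 30 nM and vorinostat at 10 µM, 1 to 3 for the controls, and 0 to 1 for each top-dose response difference. In CD4 cells the count was 0 without control replicate 1 in all 3 of those groups, and Nob1 ranged from -0.68 to 0.03 in CD4 cells at both top doses. With 2 arrays a group, the number of arrays limits the precision.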
